A study of Rattus norvegicus with 11 samples.

Results

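Control islets in this series are the pancreatic islets of daughters whose fathers ate chow with 9% fat, and the account below gives the order, share, detection and spread of their miRNAs. The arrays were chosen by title: Control 602, 613, 615 and 639 on a first array design, and Control 635 and 652 on a second. They are 6 of the 11 arrays of the series, and the remaining 5, from daughters of fathers on a high-fat diet, were not used, so nothing here compares diets. All animals were female Sprague Dawley rats. The fathers were mated at 15 weeks of age to females on chow, the daughters were weaned at 3 weeks, and islets were taken at 13 weeks. Before that they had been tested for tolerance of glucose (weeks 6 and 12) and of insulin (week 11). Each array held Cy3-labelled material from 100 ng of total RNA of 1 numbered sample. The labels do not say whether daughters shared a father or a litter. Islets were analysed whole, so fewer cells of a type and less RNA per cell cannot be told apart in any value below.

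miRNAs are short RNAs that are loaded into Argonaute proteins and lower the output of mRNAs they pair with. Pairing rests mainly on the seed, the stretch from base 2 to base 8 counted from the 5′ end, so miRNAs that share a seed form families with overlapping targets. In islets, the small endocrine organs scattered through the pancreas, miR-375 is known as an endocrine miRNA needed for beta-cell mass and for the control of insulin secretion. miR-7 is known as an endocrine and neuroendocrine miRNA, the miR-200 family marks epithelial cells, and let-7 accompanies differentiated, non-proliferating cells.

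The mature sequences below are those of the brightest families, shown because most of the signal of Control islets lay in them. They come from RefSeq for rat build GRCr8, run 5′ to 3′, and carry the seed in capitals.
miR-7a: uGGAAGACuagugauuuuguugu
miR-7b: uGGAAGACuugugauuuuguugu
miR-29a: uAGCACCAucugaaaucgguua
miR-29b: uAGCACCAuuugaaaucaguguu
miR-29c: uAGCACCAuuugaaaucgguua
let-7a: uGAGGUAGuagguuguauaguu
let-7b: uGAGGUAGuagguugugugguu
let-7c: uGAGGUAGuagguuguaugguu
let-7f: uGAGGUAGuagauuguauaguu
miR-200c: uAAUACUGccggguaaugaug
miR-141: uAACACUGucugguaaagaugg
miR-23b: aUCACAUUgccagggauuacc
miR-375: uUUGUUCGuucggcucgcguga
miR-26a: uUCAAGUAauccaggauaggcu

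Members of a family were close in sequence. Counting from 1 at the 5′ end, miR-7a and miR-7b differed by the single substitution A10U, let-7a and let-7c by A19G, let-7a and let-7f by G12A, and let-7c and let-7b by A17G. miR-29a and miR-29c differed by C10U, and miR-29a and miR-29b at 4 positions. miR-200c and miR-141, neighbours in the genome, differed inside the seed by U4C. Array probes may pair with more than 1 member of a family this close, and how far they did so was not tested. A sequence was matched for 137 of the 208 names detected on any Control array, 41 by the name itself and 96 by the name plus its arm. These names held 92.5% to 93.0% of the signal on first-design arrays, and 89.2% and 89.9% on Control 635 and Control 652.

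The value used is the total intensity that the scanner software gives a miRNA, summed over its probes and already corrected for background. An array's signal means the sum of this value over the miRNAs the software called detected, and a share is a miRNA's percentage of that sum. Shares rank the brightness of probes on an array. Probes differ in how well they hybridise and miRNAs in how well they take label, so the order below is one of signal and was not calibrated to molecules. The arrays' signal came to 41379, 54538, 48174 and 53062 intensity units on Control 602, 613, 615 and 639, and to 62732 and 137348 on Control 635 and 652. No spot was saturated on the 6 arrays. Array design coincided with slide, software version and animals, so these cannot be told apart. For that reason the 4 first-design arrays are described as a group and the other two beside them.

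On the first design, which lists 350 miRNAs, the software detected 149 on Control 602, 157 on Control 613, 141 on Control 615 and 143 on Control 639, a mean of 147.5 ± 7.19 (SD, n = 4). On the second, which lists 677, it detected 144 on Control 635 and 187 on Control 652. On the first design 131 miRNAs were detected on all 4 arrays, 187 on none and 32 on some. On the second, 142 were detected on both arrays, 488 on neither and 47 on 1 of the 2. Of the 340 names on both designs, 108 were detected on all 6 arrays and 160 on none.

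A small number of miRNAs carried most of the signal. The 10 brightest miRNAs held 59.1%, 56.9%, 57.2% and 59.1% of the signal on Control 602, 613, 615 and 639, and 52.0% and 53.6% on Control 635 and 652. The brightest 20 held 77.4% ± 0.691 (SD, n = 4) on the first design, against 70.2% and 71.5% on the second-design arrays. The smallest set reaching 50% of the signal had 8 miRNAs on each of the 4 first-design arrays, 10 on Control 635 and 9 on Control 652. To reach 90% took 42, 44, 42 and 41 miRNAs on the first design, and 51 and 53 on the second. The median share over the 131 miRNAs detected on all 4 first-design arrays was 0.160%, so a typical detected miRNA lay far below the leading ones. The curves of cumulative share show the signal more concentrated on all 4 first-design arrays than on both second-design arrays at these marks.

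**Figure D1:**
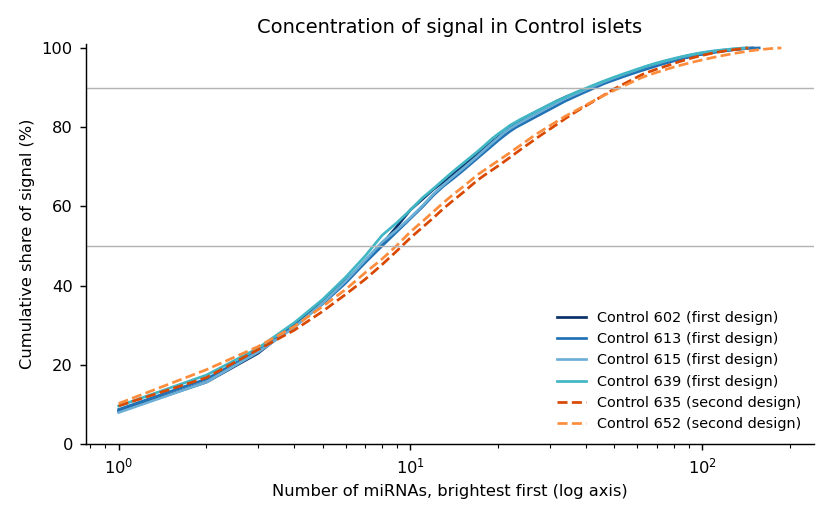
Cumulative share of an array's signal (percent, vertical) against the number of miRNAs counted from the brightest (horizontal, log axis), 1 line per Control array, solid for the first design and dashed for the second, with grey lines at 50% and 90%. First-design lines cross 50% at 8 miRNAs and second-design lines at 9 and 10.

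The endocrine miRNA miR-7a led the order. Its share was 7.24%, 8.75%, 7.98% and 9.60% on Control 602, 613, 615 and 639, a mean of 8.39% ± 1.01 (SD, n = 4), and 9.65% and 10.3% on Control 635 and 652. It was the brightest on 5 of the 6 arrays and had rank 3 on Control 602, where let-7c was the brightest at 8.29%. miR-29b, of a family known to act on collagen and other matrix mRNAs, followed with 6.19%, 7.70%, 7.68% and 7.83% on the first design and 7.13% and 8.54% on the second. It had rank 2 on every array except Control 602, where it had rank 5. These were the only 2 miRNAs among the first 5 on all 6 arrays.

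The rest of the first-design order, by mean share over 4 arrays, ran miR-200c at 7.18%, let-7c at 6.81%, let-7b at 5.72%, miR-23b at 5.60%, miR-29a at 5.20%, miR-375 at 4.80%, let-7a at 3.62% and let-7f at 3.38%. Then came miR-29c at 2.95%, miR-141 at 2.54%, miR-24 at 2.21%, let-7e at 2.09%, miR-26a at 1.71%, let-7d and miR-27b at 1.67% each, let-7i at 1.65%, miR-22 at 1.44% and miR-16 at 1.36%. Most neighbours in this order were not separated by their array-to-array spread. Of 19 neighbouring pairs, 5 stood in the same order on all 4 arrays, namely miR-7a over miR-29b, let-7c over let-7b, miR-23b over miR-29a, miR-375 over let-7a, and let-7a over let-7f. The order of the other 14 pairs changed on at least 1 array. miR-29b exceeded miR-200c by 0.03 ± 0.20 on the log2 scale (SD, n = 4), and let-7b exceeded miR-23b by 0.02 ± 0.34, on 1 array of 4 only.

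**Figure D2:**
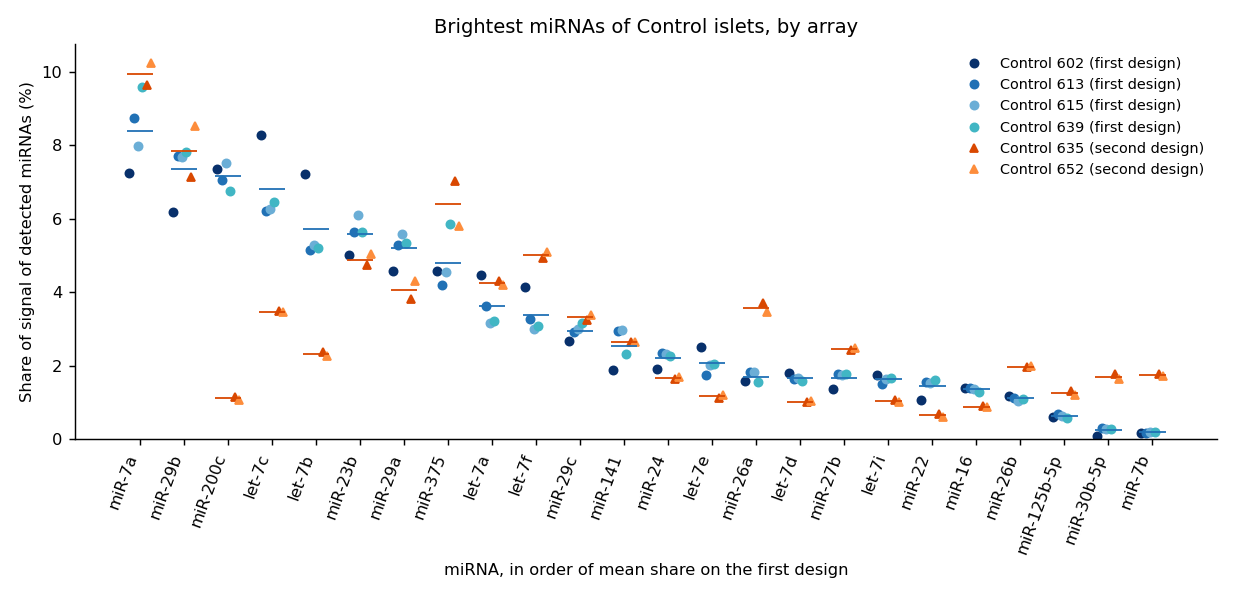
Share of signal (percent, vertical) of the 24 miRNAs that were among the first 20 on either design, with 1 point per Control array, circles for the first design and triangles for the second, and bars at the design means. miR-7a lies between 7.24% and 10.3%, while miR-200c lies at 6.76% or above on the first design and at 1.16% or below on the second.

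miR-375 held 4.58%, 4.21%, 4.56% and 5.86% of the signal on Control 602, 613, 615 and 639, with rank 8 on 3 of these arrays and rank 5 on Control 639. On Control 635 and 652 it held 7.04% and 5.798% and had rank 3. Both second-design shares lay above the 3 lower first-design shares, and the share on Control 639 lay between the pair from the second design. Together with the other members of a list of 28 islet endocrine miRNAs, it accounted for 14.8%, 17.1%, 16.7% and 19.99% of first-design signal and for 22.4% and 21.9% on the second. Of that list, 19 were detected on all 4 first-design arrays, and miR-7a and miR-375 made up most of its signal. The median share of those 19 was 0.189%, near the 0.160% of all 131 miRNAs. miR-183, of a sensory and endocrine cluster, held 0.691% ± 0.0811 (SD, n = 4) on the first design and 0.287% and 0.260% on the second. miR-204, known for lowering insulin transcription through MafA, held 0.169%, 0.127%, 0.237% and 0.227% on the first design and 0.406% and 0.377% on the second. miR-184, which is known to fall in insulin-resistant islets, was not detected on any of the 6 arrays.

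By seed, the let-7 group was the largest. Its 8 members, all detected on all 6 arrays, held 30.5% of signal on Control 602, between 23.3% and 23.5% on the other 3 first-design arrays, and 18.8% on each second-design array. let-7c had 8.29%, 6.21%, 6.28% and 6.45% on Control 602, 613, 615 and 639, and 3.49% and 3.47% on Control 635 and 652. let-7b had 7.22% on Control 602, 5.16%, 5.28% and 5.22% on the other first-design arrays, and 2.37% and 2.28% on the second design. For both, Control 602 was highest and the shares on the designs did not overlap, which was not counted over all shared miRNAs. let-7f had 3.02% to 4.16% on the first design and 4.93% and 5.09% on the second, and its scaled log2 signal was not separated between the designs (0.24 ± 0.18, SE, limma adjusted p = 0.28).

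The 3 miR-29 members held 13.5%, 15.9%, 16.3% and 16.4% on the first design and 14.2% and 16.2% on the second, which overlapped. miR-7a and miR-7b together held 8.58% ± 1.02 (SD, n = 4) and, on the second design, 11.4% and 12.0%. The miR-23 seed, of miR-23b and miR-23a, held 5.96% ± 0.440 on the first design and 5.79% and 6.02% on the second. The full set of miR-23, miR-24 and miR-27, which come from shared primary transcripts, held between 8.90% and 10.8% on the first design, against 10.1% and 10.48%. The 5 miR-200 family members held 11.2%, 12.0%, 12.4% and 10.8% on the first design, against 6.04% and 5.93% on the second. That gap lies in miR-200c, which is read by different probes on the 2 designs. The other 4 members held 3.81%, 4.91%, 4.88% and 4.06% on the first design and 4.88% and 4.85% on the second. The 2 miR-26 members held 2.67% to 2.98% on the first, and 5.67% and 5.45% on the second. The 5 miR-30 members held 0.938% on Control 602, 1.44% to 1.53% on the other first-design arrays, and 4.203% and 3.79% on the second design.

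In the genome, 27 hairpins of build GRCr8 were matched to leading miRNAs, of which 23 of 24 had a sequence. Of those 23, let-7b and miR-125b-5p had no hairpin matched. Of the miRNAs with a hairpin, 11 lay within 10000 bases of another. miR-29b and miR-29a shared a 460-base stretch of chromosome 4, and miR-29b and miR-29c one of 616 bases on chromosome 13. miR-141 and miR-200c lay within 509 bases on chromosome 4, and miR-23b, miR-27b and miR-24 within 814 bases on chromosome 17, inside the annotated span of Aopep. let-7a, let-7f and let-7d lay within 2225 bases on chromosome 17. A hairpin of miR-7a was at chr17:6278692-6278788 on the plus strand, inside the span of Hnrnpk, and a second at chr1:142215800-142215894. The single miR-375 hairpin was at chr9:83906582-83906656 on the minus strand. Among the first 20 miRNAs of the first design, 17 began with U (85%), as did 53 of the other 78 with a sequence that were detected on all 4 arrays (67.9%).

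Of the miRNAs listed for other cell types, those of muscle and liver were not detected. The lists for acinar cells, leukocytes and red cells each held at most 0.364% of an array's signal. Acinar members detected on all 4 first-design arrays, miR-216a alone, had a median share of 0.164%, near the 0.160% of all 131 miRNAs. For leukocyte members so detected it was 0.0322%. The acinar miRNA miR-216a, of the enzyme-secreting exocrine pancreas, held 0.361%, 0.238%, 0.0453% and 0.0113% of signal on Control 602, 613, 615 and 639, and 0.179% and 0.141% on Control 635 and 652. Its rank ran from 37 on Control 602 to 141, of 143 detected, on Control 639. miR-217, its genomic neighbour, was detected on Control 602 alone among first-design arrays, at 0.0029%, and held 0.125% and 0.0876% on the second design, where its probes were others. The acinar miR-216b-5p, on the second design alone, held 0.0147% and 0.0307% on Control 635 and 652. miR-148a was not among the names analysed here. Of 8 leukocyte miRNAs, 7 were on each design and 3 were detected on all 4 first-design arrays. That list held 0.281% to 0.337% on the first design and 0.279% and 0.264% on the second, and miR-342-3p was most of it on the first. miR-146a was detected on all 6 arrays at 0.0855% or below, and miR-146b on 5. miR-223 was detected on 4 of the 6 arrays, miR-150 on 3, miR-142-3p on both second-design arrays only, and miR-142-5p on none. The red-cell miRNA miR-451 was not detected on the first design and held 0.0301% and 0.0141% on the second, and miR-144 and miR-363 were not detected. miR-155 and miR-486 were not among the names analysed here. Endothelial miRNAs held 0.529% to 0.699% on the first design and 1.05% and 0.875% on the second, mostly miR-126. miR-10a-5p and miR-10b were detected on all 6 arrays, miR-126* on both second-design arrays only, and miR-139-5p on none. Fibroblast and smooth-muscle miRNAs held 2.04% to 2.72% and, on the second design, 2.68% and 2.34%. The 5 members detected on all 4 first-design arrays had a median share of 0.373%, above the 0.160% of all 131 miRNAs. The sum was mostly miR-99a and miR-125b-5p, which many tissues express, whereas miR-143 held 0.247% to 0.550% over the 6 arrays, and miR-145, miR-199a-5p and miR-218 were not detected. miR-152 and miR-199a-3p were detected on all 6 arrays, miR-100 on 5 and miR-214 on 3. Of the neuronal list, miR-124, miR-9 and miR-138 were not detected, miR-137 was detected on all 6 arrays, miR-128 on 5, miR-132 on 4 and miR-219-5p on 2. The brightest, miR-212, known to be induced by CREB, held 1.21%, 0.522%, 0.360% and 0.417% on the first design and 0.475% and 0.470% on the second. None of the 6 muscle miRNAs, and not the liver miRNA miR-122, was detected on any array. The part of such cells in the array-to-array differences below was not tested.

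To compare arrays, each was divided by the 75th percentile of its own signal, taken over those 108 miRNAs found on all 6 arrays, and log2 was taken. The SD over the 4 first-design arrays had a median of 0.22 over the 131 miRNAs detected on all 4. It was below 0.25 for 80 of them, above 0.5 for 14 and above 1 for miR-216a alone. The spread was larger for dim miRNAs, with a median SD of 0.26 over the 44 dimmest, 0.23 over the next 43 and 0.19 over the 44 brightest. The least variable were miR-146b (SD 0.03), miR-16 (0.03), miR-429 (0.03), miR-200c (0.04), miR-151 (0.04), miR-125a-5p (0.06), let-7d (0.07) and miR-98 (0.08). miR-200c combined a high level with a small spread, its lowest and highest scaled signals differing 1.05-fold.

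miR-216a was the most variable, with an SD of 2.28 and a 30.9-fold range, highest on Control 602 and lowest on Control 639. Next came miR-193 at 0.83, miR-129* at 0.82, miR-125a-3p at 0.80, miR-34a, a p53-induced miRNA, at 0.79, miR-212 at 0.79, miR-30b-5p at 0.79 and miR-347 at 0.78. Control 602 was the highest array for miR-216a, miR-193, miR-125a-3p, miR-34a, miR-212 and miR-347, and the lowest for miR-129* and miR-30b-5p. miR-34a, for example, had scaled log2 signals of -1.13, -1.90, -2.40 and -3.002 on Control 602, 613, 615 and 639, and miR-212 had 0.98, -0.25, -0.82 and -0.50. miR-216a had -0.77, -1.38, -3.81 and -5.71, and miR-193 had -3.20, -3.38, -4.60 and -4.84. Control 602 and 613 lay in 1 row of the slide, and Control 615 and 639 in the other. Of these 8 miRNAs, 5 were higher on both arrays of the row with Control 602, namely these 4 and miR-125a-3p, and miR-129*, miR-30b-5p and miR-347 were not. All 8 were picked for their spread on these same arrays. The count by row was not made over the 131 miRNAs, so there is no background to set it against. The part of slide position was not tested.

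**Figure D3:**
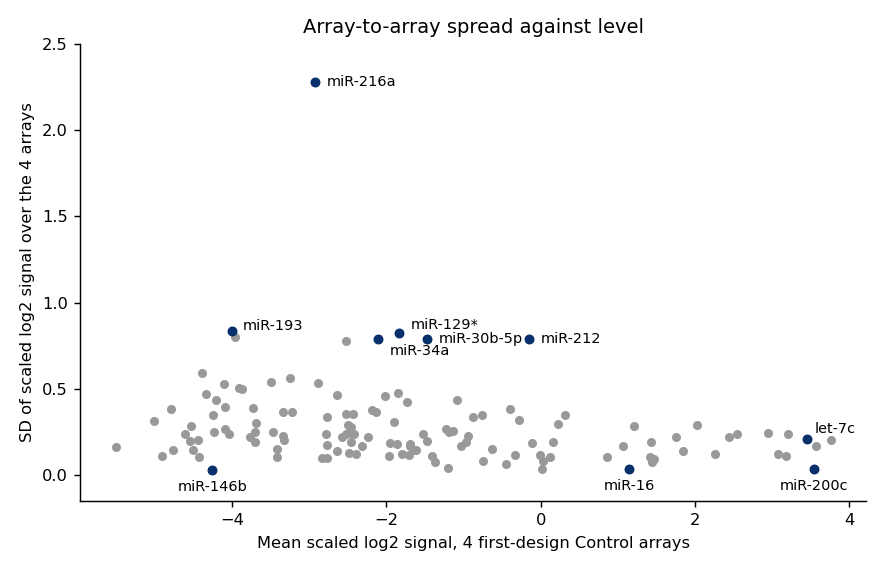
SD of scaled log2 signal over the 4 first-design Control arrays (vertical) against its mean (horizontal), 1 point per miRNA detected on all 4. miR-216a stands alone at an SD of 2.28, and miR-200c and miR-16 combine high signal with SDs of 0.04 and 0.03.

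Control 602 stood apart from the other first-design arrays. The median size of its deviation from the mean of the other 3, in scaled log2 signal, was 0.32, against 0.15, 0.15 and 0.21 for Control 613, 615 and 639. It was the lowest array for 60 of the 131 miRNAs, against 17, 27 and 27, and the highest for 47, against 23, 11 and 50. Its median Spearman correlation with the other 3 over the 108 miRNAs was 0.939, against 0.967, 0.980 and 0.967 for Control 613, 615 and 639. Its replicate spots also scattered more, with a median coefficient of variation of 24.2% against 13.9%, 14.5% and 11.7% on those arrays. Without Control 602 the median SD was 0.13, computed over the names on both designs, where it was 0.22 with it. Whether the spot scatter contributed to its deviations was not tested. Such correlations describe miRNAs and not replicates. They ran from 0.918 to 0.991 within the first design, stood at 0.984 between the second-design arrays, and ran from 0.840 to 0.893 across designs.

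The second design kept most of the leading names but in another order, with 16 of the first 20 and 8 of the first 10 in common. Names among the first 10 on all 6 arrays were miR-7a, miR-29b, miR-375, miR-23b, miR-29a, let-7a and let-7c. let-7d, let-7i, miR-22 and miR-16 left the first 20, and miR-26b, miR-7b, miR-30b-5p and miR-125b-5p entered. Scaled log2 signal was compared between the designs with limma over the 148 shared miRNAs detected on at least 3 of the 6 arrays. At a Benjamini-Hochberg adjusted p of 0.05, 80 differed, which is 54.1% of those tested. Of these, 28 were higher on the second design (18.9%) and 52 lower (35.1%). The split depended on the scaling, with 30 higher and 21 lower when arrays were scaled by the median of detected miRNAs, 42 and 36 by total signal, and 51 and 5 with no scaling. The median difference over all 148 was -0.35, and 0.02 under either of the first pair of these alternatives and 0.91 with no scaling, so each difference below is to be read against it. All 28 higher miRNAs kept their direction under the 5 other scalings, as did 29 of the 52 lower ones. Each of these 5 scalings gave a median difference above -0.35, which favours a higher call over a lower one. These counts therefore do not show that the higher calls are firmer.

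The 10 names of smallest p and miR-30b-5p are given here, and 60 of the 148 differed by more than 2-fold. miR-200c was lower on the second design by 3.02 ± 0.12 on the log2 scale (SE, limma adjusted p = 3.1e-05), an 8.09-fold difference, and kept that direction under every scaling tried. Its share was 7.36%, 7.06%, 7.53% and 6.76% on Control 602, 613, 615 and 639 and 1.16% and 1.08% on Control 635 and 652, and it has no probe in common between the designs. miR-7b has the same probes on both and was 7.33-fold higher on the second (limma difference 2.87 ± 0.13, adjusted p = 3.4e-05), with 0.175% to 0.202% of signal on the first and 1.77% and 1.72% on the second. miR-30b-5p was higher by 2.60 ± 0.49 (limma adjusted p = 0.0062), with 0.0982%, 0.301%, 0.294% and 0.283% on Control 602, 613, 615 and 639 and 1.77% and 1.64% on Control 635 and 652. For all 3 names the shares on the designs did not overlap, and how many of the 148 share this was not counted. miR-200c and miR-7b were picked by their small p in this same comparison. miR-352 and miR-30e*, the latter detected on 1 of 4 first-design arrays, were also higher, and miR-210, the hypoxia miRNA, miR-154, miR-183 and miR-151 lower. miR-151 turned to 0.052 with no scaling. For miR-217 the difference of 3.41 rests on first-design arrays at the lowest value allowed, with detection on 1 of 4. miR-532-5p was detected on all 4 first-design arrays and on neither second-design array, so that its signal was at least 2.82-fold lower there.

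Among the leading names with the same probes, let-7c was lower on the second design by 1.30 ± 0.17 (SE) and let-7b by 1.62 ± 0.18, with limma adjusted p-values of 0.0016 and 0.0011. miR-26a was higher by 0.73 ± 0.13 (limma adjusted p = 0.0042). The test did not separate the designs for miR-375 (0.08 ± 0.19, limma adjusted p = 0.71), miR-7a (-0.09 ± 0.17, adjusted p = 0.68) or let-7a (-0.09 ± 0.18, adjusted p = 0.69). Of names with the same probes, 76 of 142 differed, and 4 of the 6 tested names with no probe in common. With the same probes, 90 of 95 miRNAs that have 2 probes showed the pair closer in signal on the second design. The brighter probe exceeded the dimmer by a median of 4.36-fold on the first design and 1.54-fold on the second. Designs also differ in animals and slides, so which of these moves with a name's difference cannot be told apart.

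**Figure D4:**
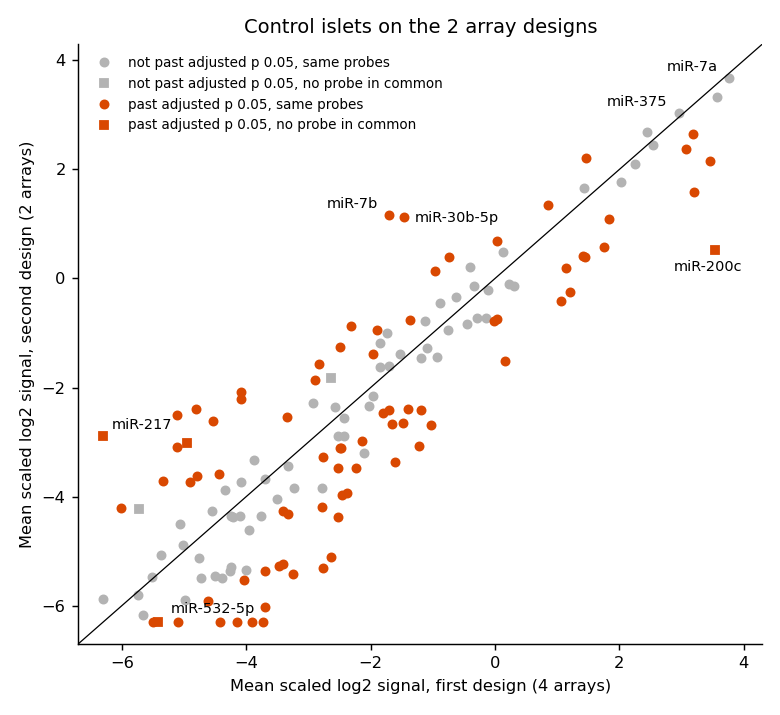
Mean scaled log2 signal of 148 miRNAs on the second design (vertical, 2 arrays) against the first (horizontal, 4 arrays), with the line of equality. Orange marks are past an adjusted p of 0.05 and squares have no probe in common. miR-200c lies 3.02 below the line and miR-7b 2.87 above it.

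**Figure D5:**
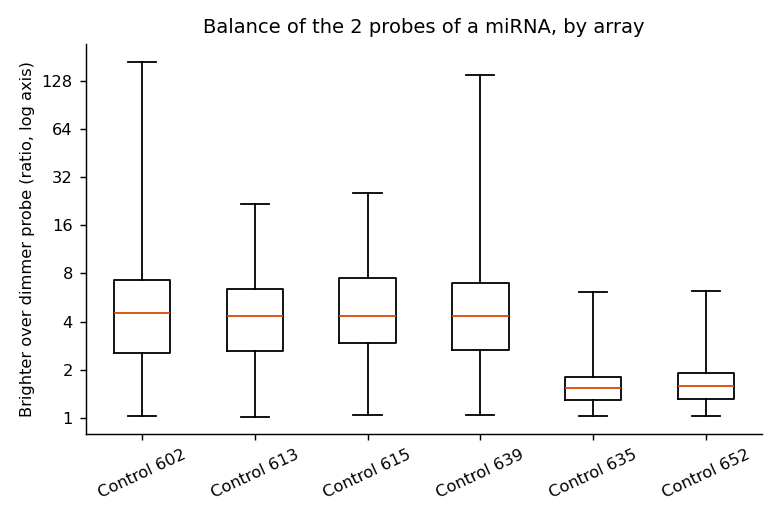
Ratio of the brighter to the dimmer probe (vertical, log axis) for 95 miRNAs with 2 probes that are the same on both designs, 1 box per Control array, with medians in orange, quartile boxes and whiskers to the extremes. Medians are 4.49, 4.32, 4.35 and 4.33 on the first design and 1.53 and 1.58 on the second.

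Detection differed too. Of the shared names, 4 were detected on all 4 first-design arrays and on neither second-design array, namely miR-132, miR-30b-3p, miR-532-5p and miR-672. Another 9 were detected on both second-design arrays and on none of the first, namely miR-126*, miR-142-3p, miR-290, miR-369-3p, miR-376b-5p, miR-381, miR-384-3p, miR-451 and miR-539. Of the 337 names on the second design alone, 14 were detected on both of its arrays and 24 on at least 1. These names held 2.84% of the signal on Control 635 and 1.85% on Control 652. The brightest was miR-1224, with 0.784% and 0.349%, at ranks 28 and 47. It was followed by miR-652* with 0.456% and 0.270%, miR-129-1* with 0.414% and 0.289%, and miR-129-2* with 0.368% and 0.269%. miR-3584-5p, miR-455*, miR-582, miR-3593-3p, miR-211* and miR-7a-2* completed the 10 brightest, each at 0.264% or below on both arrays. All 10 were higher as a share on Control 635 except miR-7a-2*, at 0.0418% and 0.0576%.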

How the data were processed

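Signals come from 1-colour Agilent miRNA arrays read with Feature Extraction 10.5.1.1 (first design) and 10.7.3.1 (second), per the file headers. The deposited intensity per miRNA is the software's background-corrected total over its probes, not normalised between arrays, with a detection flag. For each design the authors deposited a log2 table as well, which served as an alternative. The submitters' processing notes name RMA and Partek, and their role and version are not given in the sources used here.

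Control probes were left out. Nearly all miRNAs have 20 spots per array, so probe number does not enter the total. Scaled signals were floored at the 1st percentile of detected values before log2. The 2 designs were compared within Control with limma 3.58.1 in R 4.3.3 (eBayes, 2-sided). The fit was tested on simulated data of 148 miRNAs, 30 of them changed. A log2 change of 0.5 was found in 21% of cases, of 1 in 68% and of 2 in 85%, and 5.18% of calls were false. The simulated noise was independent between miRNAs and arrays, with no shift of a whole array or design. These rates therefore need not hold for the calls made on the real arrays.

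Named miRNAs were the first 20 of each design, the 8 most and 8 least variable, the 10 brightest on the second design alone, the 10 of smallest p, the 2 brightest per list, every member of the lists for other cell types, and anchors. Members, lists and rules were chosen with earlier results of these data known. p-values treat the samples as independent, and their number limits precision. miRNAs were matched between designs by name, 314 of 340 with the same probes and 26 with none in common. Sequences were matched by name or by hand-assigned arm.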

Additional observations from a re-analysis of the deposited data

Results flagged for a closer look

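Dixon's rule for 4 values was applied to 85 measures on the first design. Chance flags about 1 in 20 of measures that were not picked by their values. That rate does not hold here, since some of the miRNAs were picked for their spread on these same arrays. The rule marked 8, and in 7 of them Control 602 was the array that stood off, in all but miR-146a. These flags are not separate observations, because let-7b and let-7d belong to the let-7 family and miR-30b-5p to the miR-30 family. The figure given for each is the gap to the nearest array divided by the whole range. Of family shares, let-7 was high on Control 602, at 30.5% against 23.3% to 23.5% (0.976), and miR-29 and miR-30 were low there, at 13.5% against 15.9% to 16.4% (0.849) and at 0.938% against 1.44% to 1.53% (0.847). Of scaled log2 signals, let-7b was high on Control 602 at 3.55 against 3.05 to 3.14 (0.829001), and let-7d at 1.55 against 1.40 to 1.42 (0.867). miR-30b-5p was low there at -2.65 against -1.11 to -1.04 (0.958), and miR-342-3p at -1.77 against -1.40 to -1.34 (0.857). miR-146a was high on Control 613 at -4.14 against -4.56 to -4.54 (0.938).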

How the results depend on the processing

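The brightness order held under other summaries of the spots. On the first design miR-7a was first and the same 20 names led by spot mean, highest probe mean and normexp background correction. The deposited log2 table kept these 20 too, but on this design it is log2 of the same totals plus a constant. Its order within an array was therefore fixed, and it is no separate summary. On the second design the deposited table kept 17 of the 20. It holds log2 of the same totals where detected, apart from the few entries named under Other observations. The part of those entries in the changed order was not tested. On the first design, normexp with offset 50, run on median spot and background signals, gave 48.1% for the 10 brightest, 86.3 miRNAs for 90% of signal, 6.97% for miR-7a, 20.9% for let-7 and a median SD of 0.12. Using the highest probe mean gave 59.3% for the 10 brightest and 9.60% for miR-7a. Calling a miRNA detected when over 0.5 of its spots were well above background left 78 on all 4 first-design arrays and 66 on all 6. Scaling by the median of detected miRNAs left 51 miRNAs different between designs, and normexp gave 15 higher and 62 lower. miR-151 reversed to 0.052 with no scaling and miR-30e* to -0.24 with normexp. Leaving out each array in turn gave median SDs from 0.13 to 0.24, the lowest without Control 602, and 63 to 82 miRNAs that differed between designs. The design comparison was not run on the deposited tables, which add different constants before log2. Depth is limited by signal over background, since dim miRNAs are near the detection limit.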

Other observations

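The deposited log2 tables were set against the arrays' own values with a tolerance of 0.01. First-design columns equal log2 of total intensity plus 50 in all 340 names, and second-design columns equal log2 of total intensity where detected, except miR-126, miR-365 and miR-425 on Control 635 and miR-136* and miR-27a on Control 652. Column medians were 5.70, 5.70, 5.68 and 5.69 on Control 602, 613, 615 and 639, and 6.59 and 6.89 on Control 635 and 652. The tables hold no ratios, so no direction is involved.

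Differences between the designs varied with base composition. The Spearman correlation of the second-minus-first difference with GC content was -0.37 over 83 miRNAs with a sequence, given as a description. The median difference was -0.09 in the third of lowest GC, -0.18 in the middle and -0.60 in the highest. The part of GC content in the differences was not tested.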
